A study of Homo sapiens with 6 samples.

Results

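The genes that store, import, release and sense iron were examined after silencing of SPINK2 in the human acute myeloid leukaemia cell line FUJIOKA. The set holds 9 genes, FTH1, FTL, NCOA4, TFRC, STEAP3, CYBRD1, HMOX1, ACO1 and IREB2, which were taken by symbol from a table of 63236 genes. Each symbol had 1 row, and all 9 genes carried an adjusted p. RNA of 3 libraries with a non-targeting control shRNA (shNEG) was compared with RNA of 3 libraries with a shRNA against SPINK2 (shSPINK2). In both groups the shRNA sat in the Tet-pLKO-puro vector, was delivered by lentivirus, selected with puromycin and switched on with doxycycline. How long doxycycline had been present when RNA was extracted is not given in the sources used here. The labels name 2 SPINK2 shRNAs, the methods 1, and nothing says which of them a shSPINK2 library carries, so that these libraries were treated as 1 group of a single cell line. Nothing says that the 3 libraries of a group came from separate cultures, so p-values measure only the spread between these libraries, which may be technical.

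Iron enters most cells on transferrin, which binds the transferrin receptor and is taken into endosomes, where a reductase of the STEAP family prepares the iron for export into the cytosol. Iron that is not needed is stored in ferritin, a shell of heavy and light chains, and is freed again when the receptor NCOA4 carries ferritin to the lysosome. The iron regulatory proteins, encoded by ACO1 and IREB2, bind a hairpin called the iron-responsive element when iron is scarce, which blocks translation of ferritin mRNA and protects transferrin receptor mRNA from decay. Cells of the monocyte and macrophage lineage are known for handling iron taken from haem, which HMOX1 breaks down.

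Of the 9 transcripts, 3 carry such a hairpin by sequence, and they are shown because they mark the mRNAs that the iron regulatory proteins can bind. The search took the loop CAGTGN with an unpaired C 5 bases before it and 5 paired bases on each side of the loop, in the sense strand of the canonical GENCODE transcripts. FTH1 and FTL each had 1 match in the 5′ UTR and TFRC had 4 in the 3′ UTR, and the canonical UTRs of the other 6 genes had no match to these letters. An element with another loop or stem would be missed, so these are counts of matches and not of all elements. Over the protein-coding genes with an adjusted p, 14 of 12298 5′ UTRs (0.114%) and 90 of 12737 3′ UTRs (0.707%) held a match. The windows of 30 bases are written 5′ to 3′ on the transcript strand with the loop in capitals, and are on hg38 at chr11:61967573-61967602 (minus strand) for FTH1, chr19:48965335-48965364 (plus strand) for FTL and, all on the minus strand, chr3:196050978-196051007, chr3:196050574-196050603, chr3:196050509-196050538 and chr3:196050462-196050491 for TFRC in transcript order.
FTH1 5′ UTR: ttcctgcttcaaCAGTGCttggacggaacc
FTL 5′ UTR: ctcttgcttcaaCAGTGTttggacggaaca
TFRC 3′ UTR, 1: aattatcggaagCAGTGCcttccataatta
TFRC 3′ UTR, 2: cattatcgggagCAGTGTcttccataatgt
TFRC 3′ UTR, 3: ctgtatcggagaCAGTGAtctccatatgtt
TFRC 3′ UTR, 4: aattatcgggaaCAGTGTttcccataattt

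The deposited table gives 1 mean over all 6 libraries for each gene, the fold change between the groups and its error. Means are read counts divided by a size factor, the number that brings the libraries to a common depth. Because the means are written to 15 digits, the whole reads of each library could be recovered for 16757 of the 17395 genes with an adjusted p (96.3%), including 7 of the 9 iron genes. The 6 size factors lay between 0.9854 and 1.033, and the recovered genes, which hold 64.4% of the summed mean, had 24368921 to 25291894 reads per library. The recovered libraries carry no replicate number and are called a, b and c by rising size factor within a group, with the group given by the sign of the deposited fold change. Reads were not marked by molecular identifiers, so that counting precision leaves out amplification, and in bulk RNA fewer cells of a kind and less RNA per cell cannot be told apart.

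SPINK2, the silenced gene (chr4:56809860-56821742, minus strand), had 53.06, 62.96 and 55.84 normalized reads under shNEG and 6.089, 8.916 and 6.775 under shSPINK2. The groups did not overlap, and the deposited log2 fold change was -2.98 (SE 0.41, adjusted p = 2.411e-12, DESeq2 Wald test). Of the markers that define the cell type, LYZ, a granule protein of myeloid cells, was the highest of the myeloid blast list at a mean of 44097, while CD34 had a mean of 19.56. The haemoglobin genes HBA1, HBA2 and HBB, the liver gene ALB and the epithelial gene EPCAM were at 0. The highest means of the other marker lists were 3622 for CSF1R (monocyte and macrophage), 492.3 for EPOR (erythroid), 183.5 for CD79A (lymphoid), 149.1 for COL1A1 (stroma) and 9.988 for APOA1 (liver). The summed levels of several marker lists did not overlap between the groups, in a comparison where changes were common. Of all tested genes, 22.7% were called higher and 24.4% lower. Of the recovered genes, 29.1% had all shSPINK2 libraries above all shNEG libraries. No such share was counted for sums of lists. Of the monocyte and macrophage list, 2 of 5 tested genes were higher in shSPINK2, CSF1R (log2 fold change 0.22) and FCGR1A (0.64). The other 3 tested were not called and were low, with means of 31.41 for MARCO, 12.77 for CD163 and 6.989 for CD68. CD14 had a mean of 2.826 and was not tested. The summed level of the 4 genes of this list with recovered reads was 4047 to 4289 in shNEG and 5061 to 5207 in shSPINK2. Most of this sum came from CSF1R and FCGR1A, with means of 3622 and 955.3. Of the myeloid blast list, 3 of 7 tested genes were higher, LYZ (0.49), CD33 (0.36) and PTPRC (0.33), and 1 was lower, MPO (-0.40). SPI1, CEBPA and CD34 were not called. The 5 genes with recovered reads summed to 27184 to 28151 in shNEG and 30635 to 31957 in shSPINK2. These sums leave out LYZ and CEBPA, the 2 highest of the list, with means of 44097 and 32858. EPOR was lower, with a sum of 538.7 to 612.3 in shNEG and 418.1 to 453 in shSPINK2 for its list. COL1A1 was lower as well, with 275.3 to 292.8 and 197.4 to 214.1 for its list, and CD79A was higher, with 173.5 to 182.9 and 222.6 to 281.1. The part of these marker changes in the results on iron genes was not tested.

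After silencing of SPINK2, 5 of the 9 iron genes were higher and 0 were lower at an adjusted p under 0.05. The 5 were NCOA4, HMOX1, FTL, ACO1 and TFRC, with increases of 14.4% to 52.2%, and 0 of the 9 passed the study's additional threshold of an absolute log2 fold change over 1. FTH1, CYBRD1, STEAP3 and IREB2 were not called. Changes were common in this comparison. Of the 17395 genes tested, 47.1% were called in either direction, 22.7% higher and 24.4% lower, and 1.56% were higher with a log2 fold change over 1. Among the 7000 genes with a mean of at least 1000, which include 8 of the 9 iron genes, 32.9% were called higher. All 9 fold changes were above 0, with a median log2 fold change of 0.194 against 0.006 over all tested genes and -0.019 over those with a mean of at least 1000.

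**Figure D1:**
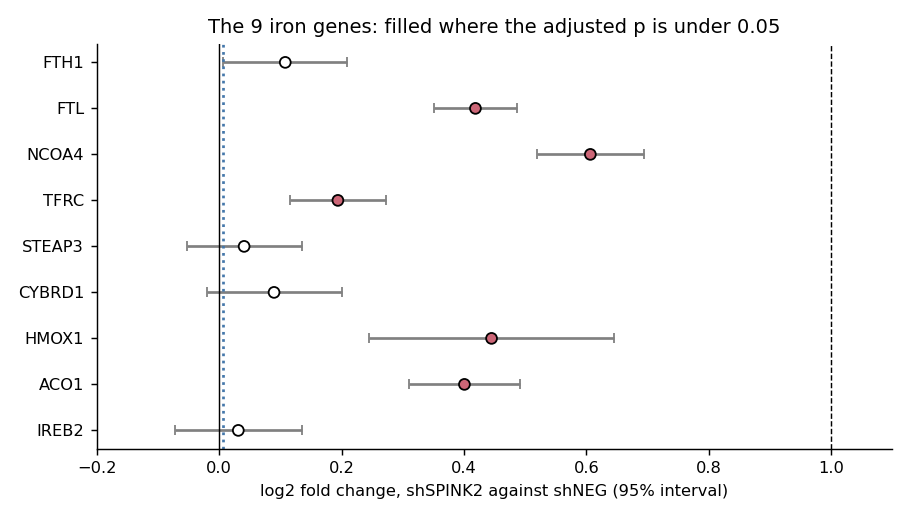
Log2 fold change of shSPINK2 against shNEG (horizontal axis) for each of the 9 iron genes, with bars for the 95% interval from the deposited standard error. Filled points have an adjusted p under 0.05, the dotted line is the median over all tested genes (0.006) and the dashed line the log2 fold threshold of 1, which no interval reaches; NCOA4 has the largest value, at 0.61, and IREB2 the smallest, at 0.03.

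Of the storage genes, FTL was higher and FTH1 was not called. FTL, the light chain of ferritin, lies on chr19:48965309-48966879 and had a mean of 125407 normalized reads, the highest of the 9 and rank 10 among all tested genes. It alone took 0.326% of the summed mean. Its reads per library could not be recovered, as no set of whole numbers met both deposited values. The group levels that follow from its mean and fold change were 107332 in shNEG and 143482 in shSPINK2. The increase of 33.7% (log2 fold change 0.42, SE 0.03, adjusted p = 5.669e-32, DESeq2 Wald test) had a 95% interval of 27.5% to 40.2%.

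FTH1, the heavy chain, whose ferroxidase activity loads iron into the shell, lies on chr11:61959718-61967634 and had 4283, 4035 and 4478 normalized reads in shNEG and 4403, 4552 and 4836 in shSPINK2. The groups overlapped, since the lowest shSPINK2 library was under the highest shNEG library. Means were 4266 ± 222 and 4597 ± 220 (SD, n = 3). The log2 fold change of 0.11 (SE 0.05) was not called (adjusted p = 0.07228, DESeq2 Wald test), and an exact permutation test of the 3 against 3 libraries gave p = 0.2, two-sided, where the smallest p this design allows is 0.1. A limma fit of the recovered reads, an alternative chosen after seeing the data, placed the same difference under the threshold (adjusted p = 0.0442). Over the fits without 1 library the limma log2 fold change of FTH1 ran from 0.07 to 0.14. It was 0.069 without shNEG b (adjusted p = 0.306), 0.071 without shSPINK2 c (adjusted p = 0.188) and 0.112 without shNEG a (adjusted p = 0.0982), and the limma call was lost in each of these 3 fits. The interval of the deposited fold change, 0.501% to 15.6%, leaves out the increase seen for FTL.

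Counting could treat both ferritin genes differently from the rest. Exons of BEST1, a gene on the opposite strand, cover 1267 of the 2004 annotated exon bases of FTH1 (63.2%), and whether the counting used strand is not given in the sources used here. BEST1 itself averaged 32 normalized reads and was not called (log2 fold change 0.03, SE 0.32, adjusted p = 0.948, DESeq2 Wald test). Exons of other genes covered 11% of STEAP3 and 1.1% of TFRC, and none of the other 6. Of the processed copies of the ferritin genes, 25 rows named FTH1P and a number summed to 38.6 normalized reads, 0.871% of FTH1, and 14 rows named FTLP and a number summed to 222.2, 0.177% of FTL. No copy reached 1% of its parent. The part of reads shared with BEST1 or with copies in these values was not tested. Low counts in those rows cannot show how many reads FTH1 or FTL lost.

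NCOA4, the receptor that delivers ferritin to the autophagosome, lies on chr10:46005088-46030623, had a mean of 23679 and showed the largest fold change of the 9 genes. Its deposited values were met by 12 sets of whole reads, so no value per library is given. The fitted level rose from 18774 in shNEG to 28584 in shSPINK2, by 52.2% (95% interval 43.3% to 61.7%; log2 fold change 0.61, SE 0.04, adjusted p = 5.286e-41, DESeq2 Wald test). Its interval on the log2 scale, 0.52 to 0.69, lies above that of FTL, 0.35 to 0.49.

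Among the uptake genes, TFRC was higher and the other 2 were not called. TFRC, the transferrin receptor (chr3:196012511-196082153), had 13319, 13863 and 13220 normalized reads in shNEG and 15250, 15990 and 14982 in shSPINK2. Each shSPINK2 library lay above each shNEG library, with 1119 reads between the groups. The mean rose from 13468 ± 346 to 15407 ± 522 (SD, n = 3), by 14.4% (log2 fold change 0.19, SE 0.04, adjusted p = 5.148e-06, DESeq2 Wald test), and the exact permutation test gave its smallest value, p = 0.1. This was the smallest of the 5 called increases.

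STEAP3, the endosomal ferrireductase (chr2:119223831-119265652), had 3431, 3350 and 3497 normalized reads in shNEG and 3626, 3587 and 3361 in shSPINK2. The shSPINK2 library c was as low as the control libraries, and the groups overlapped. The log2 fold change was 0.04 with a 95% interval of -0.05 to 0.13 (adjusted p = 0.5279, DESeq2 Wald test), which allows a change between -3.60% and 9.79%. CYBRD1, a ferric reductase of the plasma membrane (chr2:171522247-171558129), had 1480, 1457 and 1488 normalized reads in shNEG and 1539, 1610 and 1559 in shSPINK2. The groups did not overlap, with 51.67 reads between them, but the difference was small and was not called (log2 fold change 0.09, 95% interval -0.02 to 0.20, adjusted p = 0.1908, DESeq2 Wald test; exact permutation p = 0.1).

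HMOX1, haem oxygenase, which opens the haem ring and frees its iron (chr22:35380361-35394214), was the lowest of the 9 with a mean of 402.7. It had 334.4, 310.8 and 377.9 normalized reads in shNEG and 447.5, 494.3 and 451 in shSPINK2. The groups did not overlap, and the gap between them was 69.6 reads. Means were 341 ± 34.1 and 464 ± 26.1 (SD, n = 3), an increase of 36.1% with a 95% interval of 18.49% to 56.42% (log2 fold change 0.45, SE 0.10, adjusted p = 4.847e-05, DESeq2 Wald test). The interval was the widest of the set, and it covers the fold changes of FTL, NCOA4 and ACO1. The call was lost under Bonferroni adjustment over all tested genes, where p was 0.231.

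Of the genes of the iron regulatory proteins, ACO1 was higher and IREB2 was not called. ACO1, whose protein is an aconitase when it holds an iron-sulfur cluster and binds RNA when it does not (chr9:32384603-32454769), had 2868, 2884 and 2807 normalized reads in shNEG and 3871, 3769 and 3661 in shSPINK2. Each group was tight and 776.4 reads lay between them. The mean rose from 2853 ± 40.7 to 3767 ± 106 (SD, n = 3), by 32.02% (log2 fold change 0.40, SE 0.05, adjusted p = 3.689e-17, DESeq2 Wald test). IREB2, whose protein is degraded when iron is plentiful (chr15:78437431-78501453), had 3354, 3068 and 3027 normalized reads in shNEG and 3186, 3351 and 3119 in shSPINK2. The groups overlapped across most of their range, and the log2 fold change was 0.03 with a 95% interval of -0.07 to 0.14 (adjusted p = 0.677, DESeq2 Wald test).

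In comparisons that were not planned, reads were also compared within each library, first those of ACO1 and IREB2. The 2 genes differ in length, so a ratio under or over 1 does not show which is more abundant. Per kilobase of annotated exon, ACO1 stood above IREB2 in shNEG, at 371.5 to 381.8 against 280.2 to 310.5. Per kilobase of the canonical transcript the order was reversed, at 377.1 to 387.5 for ACO1 against 478.7 to 530.3 for IREB2. Which of them is more abundant thus depends on the length used. The ratio of ACO1 to IREB2 reads was 0.855, 0.94 and 0.927 in shNEG and 1.21, 1.12 and 1.17 in shSPINK2, a ratio that needs no size factor. It did not overlap between the groups, and its mean log2 difference was 0.37 (exact permutation test, p = 0.1, the smallest possible). This difference follows from the separate log2 fold changes, 0.40 for ACO1 and 0.03 for IREB2, and adds no evidence to them. No share over other gene pairs was counted. The ratio of TFRC to FTH1 reads was 3.11, 3.44 and 2.95 in shNEG and 3.46, 3.51 and 3.1 in shSPINK2. It overlapped, with a mean log2 difference of 0.09 (exact permutation test, p = 0.3). This ratio does not stand for uptake against storage, since FTL, the ferritin gene with more reads, is left out of it. The reads of FTL were not recovered, and its deposited log2 fold change of 0.42 was larger than the 0.19 of TFRC.

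**Figure D2:**
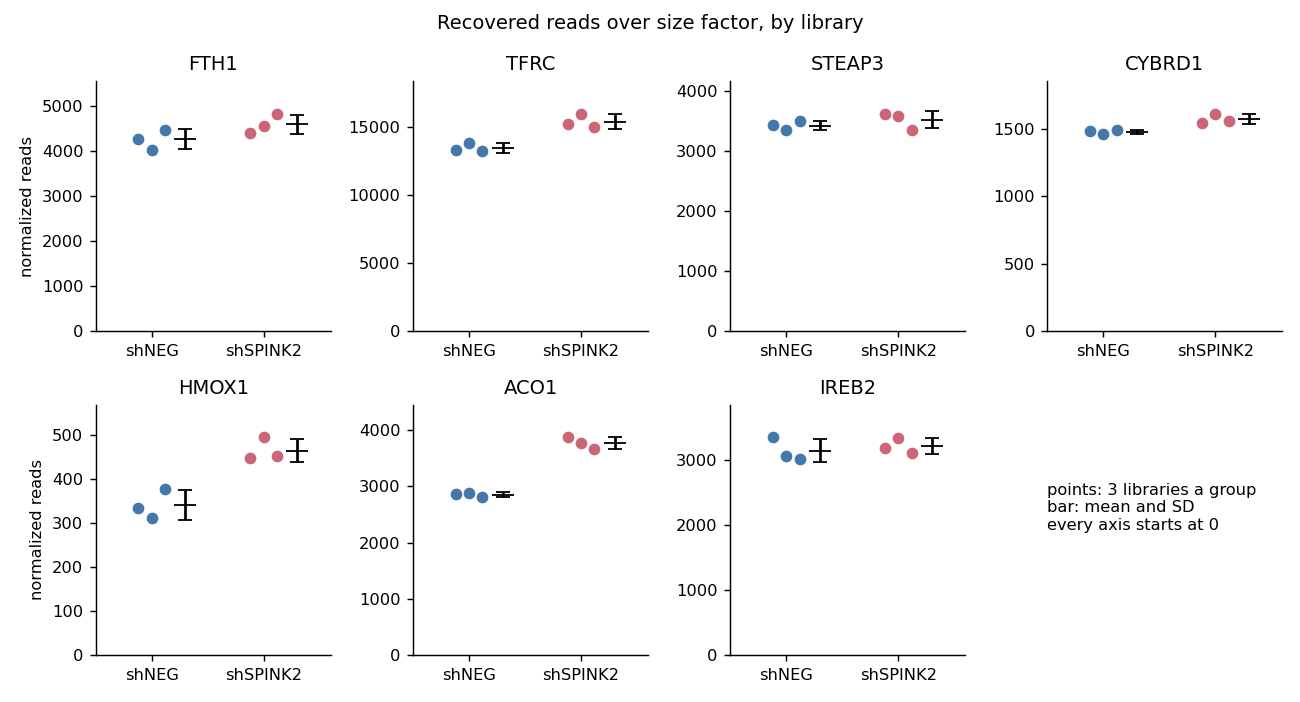
Normalized reads (vertical axes, each starting at 0) in the 3 shNEG and 3 shSPINK2 libraries for the 7 iron genes whose reads were recovered; points are libraries and the bar beside them is the mean and SD. TFRC, CYBRD1, HMOX1 and ACO1 separate the groups, by gaps of 1119, 51.67, 69.6 and 776.4 reads, and FTH1, STEAP3 and IREB2 overlap.

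Of the 7 genes with recovered reads, 4 had all shSPINK2 libraries above all shNEG libraries, as did 29.1% of the 16757 recovered genes. By limma on the same reads, 4 of the 7 were called, FTH1, TFRC, HMOX1 and ACO1, all higher, as were 26.6% of the recovered genes. CYBRD1 had a limma adjusted p of 0.121, STEAP3 of 0.47 and IREB2 of 0.59. Without each library in turn, ACO1 (log2 fold change 0.38 to 0.42), HMOX1 (0.38 to 0.52) and TFRC (0.17 to 0.21) were called by limma in 6 of 6 fits, FTH1 in 3 and the other 3 genes in 0.

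Levels can be compared between genes only per length. Per kilobase of annotated exon, the mean normalized count over all 6 libraries was 143981 for FTL, 5938 for NCOA4, 2211 for FTH1, 831 for TFRC, 762 for STEAP3, 438 for ACO1, 295 for IREB2, 294 for CYBRD1 and 175 for HMOX1. IREB2 and CYBRD1 overlapped in both groups, at 280 to 311 and 282 to 288 in shNEG and at 289 to 310 and 298 to 311 in shSPINK2. TFRC and STEAP3 overlapped in shNEG, at 761 to 798 and 734 to 767, and separated in shSPINK2, at 862 to 920 and 737 to 795. The other recovered neighbours in this order did not overlap between their libraries in either group. The order and these overlaps depend on the length used. With the canonical transcript, shNEG libraries gave 2638 to 2766 for TFRC and 786.5 to 821.1 for STEAP3. IREB2 gave 478.7 to 530.3 and CYBRD1 344.1 to 351.3 there, so that neither pair overlapped in shNEG. With the canonical transcript the count per kilobase was 2881 for TFRC, 504 for IREB2 and 445 for ACO1, so that IREB2 stood above ACO1. FTL exceeded FTH1 65.1-fold per kilobase of exon, 39.1-fold with canonical transcripts and 23.9-fold when the bases of FTH1 shared with BEST1 were left out of its length.

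**Figure D3:**
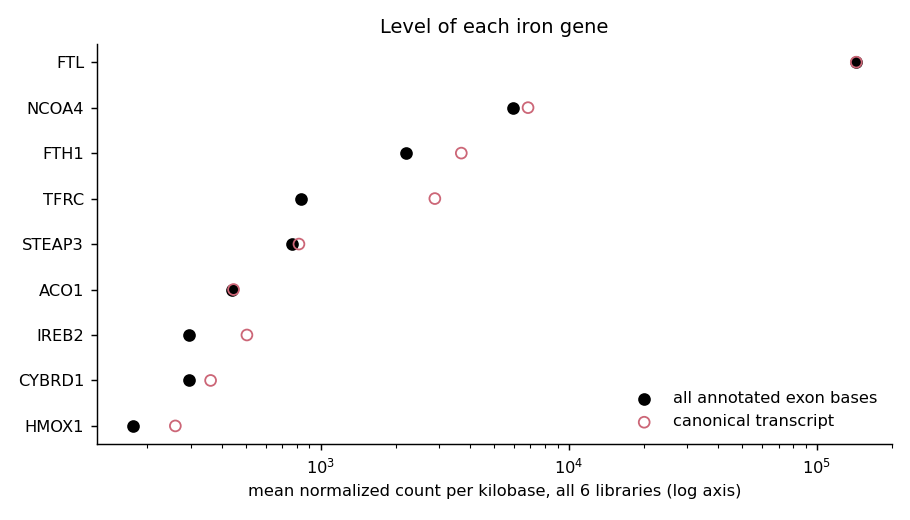
Mean normalized count per kilobase over all 6 libraries (horizontal log axis) for the 9 iron genes, with filled points for all annotated exon bases and open points for the canonical transcript. FTL stands at 143981 in the first measure, NCOA4 follows at 5938 and HMOX1 is lowest at 175; TFRC moves most with the length used, from 831 to 2881.

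The shRNAs of the labels are shown because a guide can also pair with other transcripts through a short stretch of bases. Capitals mark the word GCTCTCA, which shRNA2 holds and which was chosen from earlier results of these data. The word starts at base 10 of the printed sequence and was not chosen by its place in the guide. Whether the guide pairs through it was not tested.
shRNA1: tcagggaaggtggtcataata
shRNA2: cgccaaactGCTCTCAgtata
The sense strands of the 9 canonical transcripts held this word in 1 place of the 3′ UTR of ACO1 and 1 of the coding sequence of TFRC. The other 7 transcripts had no match to these letters. Of the 3′ UTRs of protein-coding genes with an adjusted p, 10.4% (1322 of 12737) held it. No such share was counted for coding sequences. The paper's methods give only shRNA1, which does not hold the word. The part of this word in the fold changes was not tested, and matches to a word taken from these data cannot test it.

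Other genes of iron and haem handling moved in both directions, and the counts of each list stand beside those over all tested genes. Of these, 22.7% were called higher and 24.4% lower, with a median log2 fold change of 0.006. Among those with a mean of at least 1000, 32.9% were called higher, and the share called lower was not counted. Of 17 iron transport genes tested, 4 were higher, 9 lower and 4 not called, with a median log2 fold change of -0.19. SLC40A1, ferroportin, the iron exporter of the plasma membrane, had the largest increase, from 1763, 1815 and 1756 normalized reads in shNEG to 3358, 3602 and 3286 in shSPINK2 (log2 fold change 0.94, SE 0.05, adjusted p = 9.96e-70, DESeq2 Wald test). Its groups were far apart, and its fold change was larger than that of any of the 9 genes. SLC22A17, a receptor for lipocalin, was higher too (0.70), and FLVCR2 (-0.73), a membrane transporter of the haem exporter family, and LTF (-1.25), lactoferrin, were lower. LTF was the 1 gene of the list past a log2 fold change of 1, at 42.05, 41.97 and 40.88 normalized reads in shNEG and 24.36, 20.8 and 7.743 in shSPINK2.

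Partners of NCOA4 and of the iron sensors had 11 tested genes, of which 5 were higher, 2 lower and 4 not called, with a median log2 fold change of 0.07. GABARAP (0.46) and MAP1LC3B (0.30), which decorate the autophagosome membrane, were the highest of those called. CUL1 (-0.24), the scaffold of the ligase that degrades the IREB2 protein, and CIAO3 (-0.17), a factor that inserts iron-sulfur clusters into cytosolic proteins, were lower. Iron-sulfur cluster assembly had more genes lower than higher, with 2 genes higher, 12 lower and 9 not called of 23 and a median of -0.14. Most of these 23 genes had a mean of at least 1000, a level at which the share called lower was not counted. MMS19 (-0.47) and NUBP2 (-0.46), both of the cytosolic assembly route, fell most, whereas LYRM4 (0.17) and NFS1 (0.16), partners in the mitochondrial desulfurase, were higher.

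In haem synthesis and breakdown, 7 of 12 tested genes were higher, 2 lower and 3 not called, with a median log2 fold change of 0.20. BLVRB (0.71), a biliverdin reductase, and TMEM14C (0.46), a mitochondrial porphyrin transporter, rose most. The synthesis enzyme CPOX (-0.24) was lower. Genes of the NRF2 and BACH1 axis, the factors that activate and repress HMOX1 and both ferritin genes, were split, with 5 higher, 7 lower and 3 not called of 15 and a median of -0.03. The cystine carrier SLC7A11 (0.90) was higher, and the quinone reductase NQO1 (-0.41) and the partner protein MAFK (-0.34) were lower.

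Ferroptosis is a death by iron-dependent lipid peroxidation. Of 10 tested genes of this list, 4 were higher, 5 lower and 1 not called, with a median log2 fold change of -0.10. AIFM2 (0.84), which keeps coenzyme Q reduced and had a mean of only 35.68, and ACSL4 (0.50), which activates polyunsaturated fatty acids, were higher, and the phospholipid enzyme LPCAT3 (-0.61) and the lipoxygenase ALOX15 (-0.58) were lower. Of 5 tested genes among the other transcripts with a known iron-responsive element, SLC40A1 was higher and 4 were not called, with a median of 0.04.

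**Figure D4:**
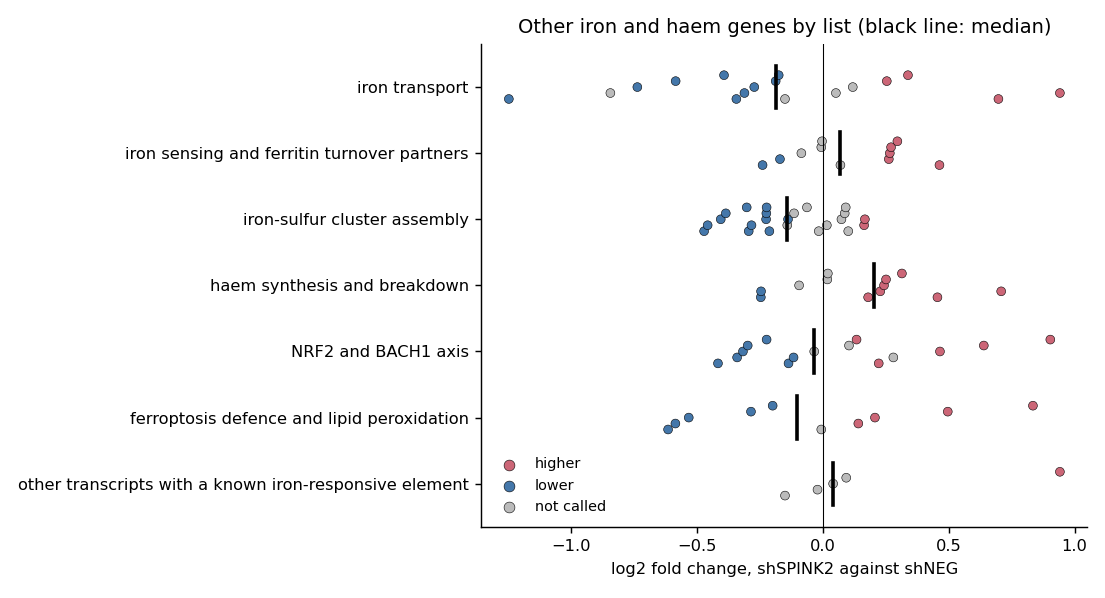
Log2 fold change of shSPINK2 against shNEG (horizontal axis) for the tested genes of 7 lists of iron and haem genes other than the 9, 1 point per gene, coloured by call, with a black line at each list's median. Haem genes have a median of 0.20 with 7 of 12 higher, iron-sulfur cluster genes a median of -0.14 with 12 of 23 lower, and SLC40A1 stands apart at 0.94 in both lists that hold it. Over all tested genes, 22.7% were called higher and 24.4% lower. Among those with a mean of at least 1000, 32.9% were called higher, and the share called lower was not counted.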

How the data were processed

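RNA of 6 FUJIOKA libraries was sequenced by the authors as paired reads of 150 bases. Per the paper's methods, reads were aligned to GRCh38 with STAR, counted with featureCounts and compared with DESeq2. The submitters' processing notes name hg38, STAR 2.7.11 and DESeq2 1.40.0. The featureCounts version, annotation release and strand setting are not given in the sources used here.

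The deposited table holds, for each gene, a mean signal, in counts divided by size factors, averaged across the 6 libraries. The deposited log2 fold changes and standard errors, the Wald score and the p-value, raw and adjusted, are the authors' DESeq2 output for shSPINK2 against shNEG. These comparison columns gave the calls at an adjusted p under 0.05. The 95% intervals were computed from the deposited fold change and standard error.

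Means shared by 546 or more genes with 1 read in 1 library gave the 6 size factors. Whole reads that met the mean to 15 digits and the fitted fold change were then searched, and only genes with exactly 1 solution were used. The search and the limma fit were tested on simulated data. Recovered reads were compared by exact permutation tests, two-sided, and by limma 3.58.1 with voom weights (R 4.3.3). Positions and UTRs are from GENCODE release 44, matched by gene ID for 17233 tested genes (99.1%). List symbols were matched by current symbol or gene ID. Scripts ran under Python 3.11.15 with scipy 1.17.1, pandas 2.3.3, numpy 2.4.6 and, for plots, matplotlib 3.10.9.

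The members and lists were chosen with earlier results of these data known. Named genes are the 9, SPINK2, and of each list the 2 called genes with the largest and the 2 with the smallest log2 fold change, some of which are not reported here. Marker genes are given in counts and by highest level. CD34, CD33, PTPRC, MPO, SPI1, CEBPA, FCGR1A, MARCO, CD163, CD68 and CD14 were named after their values were seen. Protein sequences were not used here.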

Additional observations from a re-analysis of the deposited data

How the results depend on the processing

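The count of 5 iron genes called higher held under a stricter adjusted p of 0.01, the Benjamini-Yekutieli adjustment, minimum means of 10 and 50, no filter, protein-coding genes and centred fold changes, and was 4 under Bonferroni adjustment, without HMOX1. Tested against an absolute log2 fold change of 0.25 instead of 0, 3 genes were called, with adjusted p = 0.251 for HMOX1 and 1 for TFRC. At a 1.5-fold threshold 1 gene passed, NCOA4, in place of 0. FTL over FTH1 per kilobase moved from 65.1 to 39.1 with canonical transcripts and to 23.9 without the bases shared with BEST1. No direction reversed. Leaving out 1 library gave 4 to 5 non-overlapping genes in place of 4, where 2 against 3 libraries separate more easily than 3 against 3. Limma on recovered reads, its fits without each library and the FTH1 length without BEST1 bases were chosen after seeing the data, and FTH1 crossed the threshold there (adjusted p 0.0193 to 0.306 without 1 library). SPINK2, with a mean of 32.27, has no value at a minimum mean of 50. No paired analysis was possible because the recovered libraries carry no replicate number, so the planned replicate block was not run. Reads per library of FTL and NCOA4 were not recovered, and 3 libraries per group cannot give a permutation p under 0.1.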
